A study of Mus musculus with 20 samples.

Results

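NKX2-1 is a homeodomain transcription factor of the ventral forebrain, the lung and the thyroid, and 8 of its classical target and partner genes in lung and thyroid were followed here through the chromatin of the embryonic forebrain. The genes are Sftpb, Sftpc and Scgb1a1 of the lung and Tg, Tshr, Slc5a5, Pax8 and Foxe1 of the thyroid. They were chosen by name, by a rule that uses no measured value, though with earlier results of these data known, and all 8 matched the annotation, out of 22350 protein-coding genes on chromosomes 1 to 19 and X. In the medial ganglionic eminence (MGE), the NKX2-1-dependent part of the embryonic basal ganglia, the genes fell into unlike chromatin states. The 3 lung genes and Tg had none of the 4 histone marks at their promoters. Slc5a5, Pax8 and Foxe1 carried the Polycomb mark H3K27me3 together with H3K4me3. Tshr, the receptor for thyroid-stimulating hormone, was the 1 member with acetylated histone at its promoter, the 1 member with an NKX2-1 peak over its transcription start site (TSS), and the 1 member with an LHX6 peak inside the gene. It was also the 1 member whose covered length differed between genotypes by the rule used here.

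The libraries are chromatin immunoprecipitation and sequencing (ChIP-seq) of mouse embryos at embryonic day 13.5. NKX2-1 and LHX6, a LIM homeodomain factor of the same tissue, were precipitated from wild-type basal ganglia of CD-1 mice, with no library from mutants. H3K4me3, H3K27ac, H3K4me1 and H3K27me3 were precipitated from MGE of C57BL/6 embryos, either wild type or Nkx2-1cKO, a conditional Nkx2-1 null that is called the mutant here. The Cre driver of that allele, the cells it acts in and any pooling of embryos are not given in the sources used here. The series has 20 libraries, of which 10 come with a peak list, and the 10 input and IgG libraries were not analysed here. With 1 library for each antibody in each genotype there are no replicates, so values carry no error, genotypes were not tested against each other, and a difference is one between single libraries.

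As background, H3K4me3 marks promoters in use or held ready, H3K27ac marks active promoters and enhancers, H3K4me1 marks enhancers and the flanks of promoters, and H3K27me3 is laid down by Polycomb complexes over silent developmental genes. A promoter with both H3K4me3 and H3K27me3 is often called bivalent. In the lung NKX2-1 acts on the surfactant protein genes Sftpb and Sftpc and on Scgb1a1, the secretoglobin of club cells. In the thyroid it works with PAX8 and FOXE1 on Tg, which encodes the precursor of thyroid hormone, on Tshr and on Slc5a5, the sodium iodide symporter.

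The libraries held between 26.8 and 89.1 M tags (M, mega) after the authors removed duplicates. All lengths covered by the 4 marks were greater in the mutant, by 1.22 times for H3K4me3, 1.12 for H3K27ac, 1.1 for H3K4me1 and 1.32 for H3K27me3. Over the last exon of Nkx2-1, the targeted gene, wild-type H3K4me3 covered 100% of the bases, H3K27ac 95.3%, H3K27me3 78.4% and H3K4me1 0%. In the mutant all 4 marks covered 0%. Promoters of 10 of 10 ventral telencephalon markers had H3K27ac in both genotypes. None of 4 markers each of pallium, microglia and hypothalamus had it in either genotype, and of 4 endothelial markers 0 had it in wild type and 1 in the mutant.

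The DNA under the peaks at Tshr and Pax8, and the promoters of Tg and Sftpb, which had no peak of either factor within 50 kb, are shown first because they set the sequence beside the binding. Sequences are from the reference genome NCBIM37 (mm9), on the strand of the gene, 5′ to 3′. Capitals mark the NK2 cores CACTTGA and CACTCAA and the letters CTCAAG, each on either strand. The patterns overlap, since CACTTGAG holds both CACTTGA and the complement of CTCAAG. The Tshr peak is given up to the base before the TSS (chr12:92639227-92639432, plus strand). The LHX6 peak in Tshr (chr12:92643662-92643862, plus strand) and the NKX2-1 peak in Pax8 (chr2:24297456-24297656, minus strand) are given as 100 bases either side of the summit. The Tg promoter (chr15:66502065-66502314, plus strand) and the Sftpb promoter (chr6:72254369-72254618, plus strand) are the 250 bases before the first TSS.
Tshr NKX2-1 peak: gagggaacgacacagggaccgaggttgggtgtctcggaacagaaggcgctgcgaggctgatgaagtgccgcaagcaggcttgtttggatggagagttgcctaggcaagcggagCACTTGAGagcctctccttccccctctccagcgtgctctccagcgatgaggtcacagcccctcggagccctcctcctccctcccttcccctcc
Tshr LHX6 peak: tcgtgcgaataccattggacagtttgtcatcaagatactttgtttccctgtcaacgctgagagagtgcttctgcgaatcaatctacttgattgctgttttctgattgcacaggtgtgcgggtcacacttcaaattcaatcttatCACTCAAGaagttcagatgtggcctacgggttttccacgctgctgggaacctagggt
Pax8 NKX2-1 peak: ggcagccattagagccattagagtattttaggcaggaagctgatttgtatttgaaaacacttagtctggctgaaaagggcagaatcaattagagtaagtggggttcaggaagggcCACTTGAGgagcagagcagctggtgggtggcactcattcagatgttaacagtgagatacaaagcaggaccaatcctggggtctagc
Tg promoter: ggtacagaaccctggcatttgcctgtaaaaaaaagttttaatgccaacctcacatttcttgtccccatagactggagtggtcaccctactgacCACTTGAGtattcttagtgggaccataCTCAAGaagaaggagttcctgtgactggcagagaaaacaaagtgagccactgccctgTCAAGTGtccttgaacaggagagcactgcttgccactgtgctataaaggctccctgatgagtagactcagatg
Sftpb promoter: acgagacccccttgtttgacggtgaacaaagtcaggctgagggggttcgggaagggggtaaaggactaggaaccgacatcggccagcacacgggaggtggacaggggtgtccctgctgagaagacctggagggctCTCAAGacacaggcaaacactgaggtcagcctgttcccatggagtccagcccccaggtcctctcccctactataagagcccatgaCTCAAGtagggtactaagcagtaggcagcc

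The 3 peak windows shown each held 1 NK2 core followed by G. The other NKX2-1 peaks within 50 kb of members held neither core in their windows. These were the peaks at Scgb1a1 and Slc5a5 and the upstream peak at Tshr, so the windows shown do not stand for all. Tshr had CACTTGAG with its first letter 93 bases before the TSS, inside the NKX2-1 peak. Pax8 had the same 8 letters 33578 bases after its most upstream TSS, inside the NKX2-1 peak there. The window of the LHX6 peak in Tshr held CACTCAAG 4373 bases after the TSS, and it held neither TAATTA nor TAATGA, cores bound by many LIM homeodomain factors. Over the whole lists, CACTTGA or CACTCAA lay in 21.4% of the 5683 NKX2-1 windows of 201 bases and in 4.94% of windows 1 kb after the summit. For the 1651 LHX6 windows the shares were 8.54% and 6.36%. With the final G the share was 8.59% at NKX2-1 summits and 1.7% at LHX6 summits, against 1.41% and 1.33% of windows 1 kb after. CTCAAG lay in 22.7% of NKX2-1 and 9.09% of LHX6 windows, against 10.8% and 10.1% at 1 kb after. TAATTA or TAATGA lay in 25.8% and 41.6%, against 15.0% and 17.1%. At LHX6 summits the shares of CTCAAG and of the core with G were thus near those 1 kb away.

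Letters of the same kind occurred in promoters without a peak. Tg had CACTTGA at 157 and, as its complement, at 73 bases before the TSS, and its nearest NKX2-1 peak was 185 kb away. Sftpb had CTCAAG at 115 and at 30 bases before the TSS, with its nearest NKX2-1 peak 109 kb away. Among the 250 bases before the first TSS of all genes, CACTTGA or CACTCAA lay in 5.3%, CTCAAG in 13.6%, and TATAAA within the last 50 bases in 3.09%. Of the members, 2 (Tg and Tshr) had the first, 3 (Sftpb, Tg and Tshr) the second, and 2 (Scgb1a1 and Tg) the third. A match describes letters in the reference and does not show a site in use.

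Which promoters carried which marks was asked first, counting a region that overlapped the 1 kb on either side of any annotated TSS of the gene by at least 1 base. H3K4me3 lay at 4 of the 8 members in each genotype, against 64% of all genes in wild type and 65.1% in the mutant. H3K27ac lay at 1 member in each, against 56.4% and 58.3% of all genes. H3K4me1 lay at 4 members in wild type and 3 in the mutant, against 62.5% and 62.3%, an order that did not hold under stricter limits (1 in wild type and 2 in the mutant with a −log10 p of at least 10). H3K27me3 lay at 4 members in each, against 18.9% and 21.5%. The members thus had H3K27ac at a smaller share, and H3K27me3 at a larger share, than all genes, over a list of only 8.

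Read as states in wild type, 4 members had no mark, as had 33.2% of all genes. Another 3 had H3K4me3 and H3K27me3 without H3K27ac, a state of 6.34% of all genes. Tshr had H3K4me3 and H3K27me3 with H3K27ac, a state of 11.4%. All 8 members had the same state in both genotypes, as had 92.1% of all genes.

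**Figure D1:**
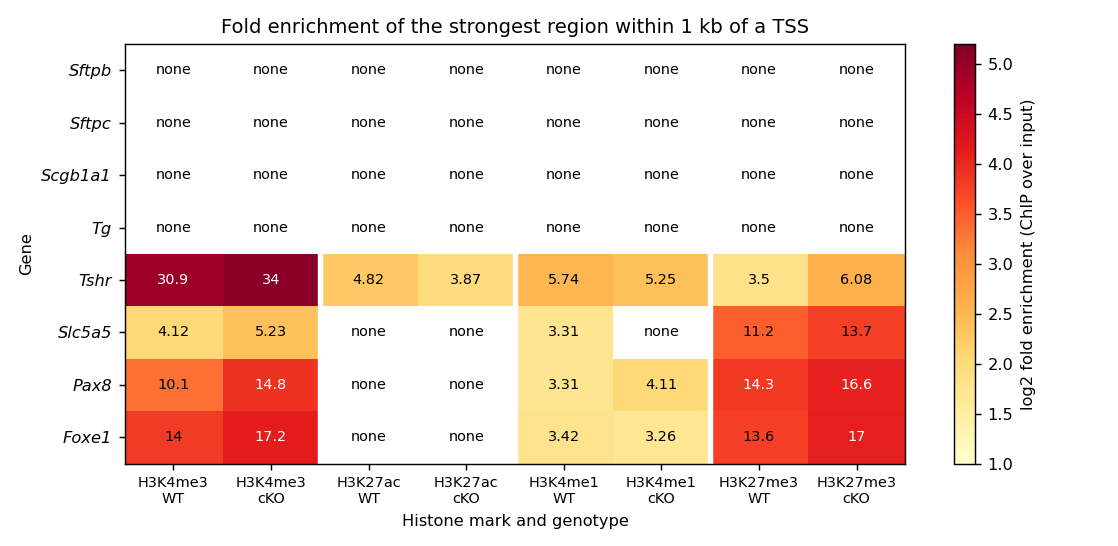
Fold enrichment (ChIP over input, as deposited by the authors) of the strongest region within 1 kb of a TSS, for each member (rows) and each mark and genotype (columns), with the value printed in each cell and colour on a log2 scale. Sftpb, Sftpc, Scgb1a1 and Tg have no region in any of the 8 lists, and H3K27ac is present at Tshr alone, at 4.82 in wild type and 3.87 in the mutant.

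How much of the surrounding chromatin was covered was measured from 10 kb before the first to 10 kb after the last TSS of each gene, called the 10 kb window. The window is 20 kb long for the 6 members with 1 TSS, 148 kb for Tg with 8 TSSs and 72.52 kb for Pax8 with 7. A gene was called higher or lower where the genotypes differed by at least 1.5 times and at least 1 kb. For H3K27ac, 1 member was called lower (Tshr) and 0 higher, against 1.16% and 2.81% of all genes. For H3K4me1, 1 was lower (Tshr) and 0 higher, against 1.06% and 1.86%. For H3K27me3, 0 were lower and 1 higher (Tshr), against 0.255% and 4.35%. For H3K4me3, 0 were lower and 0 higher, against 0.094% and 2.27%. The combination seen at Tshr, with H3K27ac and H3K4me1 lower and H3K27me3 higher, was met by 10 of the 22350 genes, or 0.0447%. This combination was chosen after the data were seen. Of those 10 genes, 4 had an NKX2-1 peak in the 10 kb window and 1, Tshr, had peaks of both factors.

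**Figure D2:**
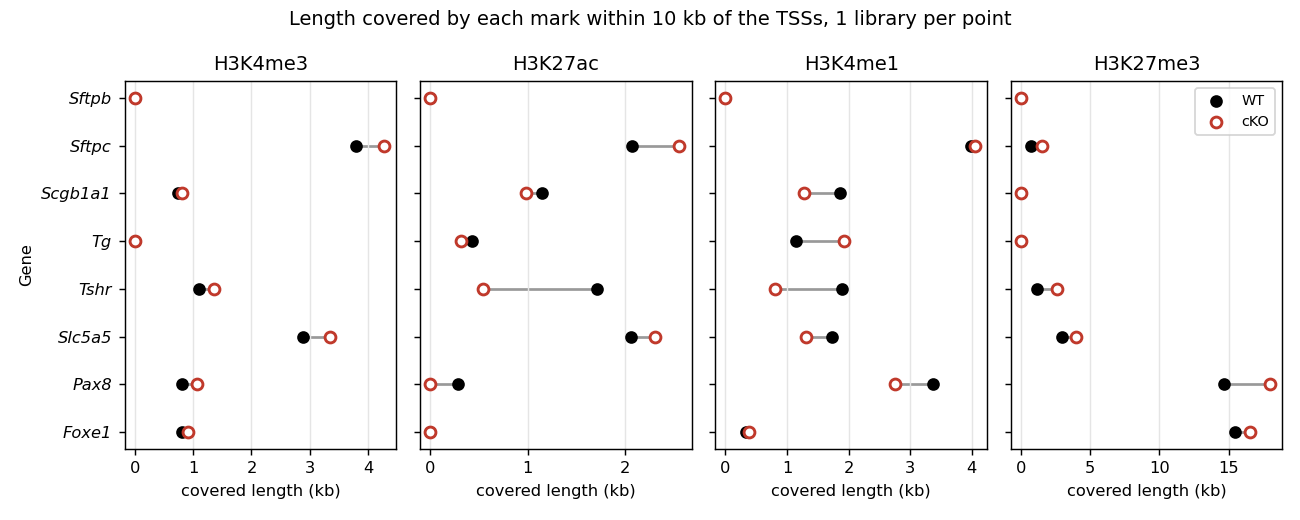
Length covered by each mark in the 10 kb windows (x axes, kb, a scale of its own for each mark) for the 8 members, with wild type as filled black points, the mutant as open red points and 1 library per point. Tshr has the widest gap for H3K27ac, from 1.71 kb in wild type to 0.546 kb in the mutant, while Pax8 and Foxe1 have more than 14 kb of H3K27me3 in both genotypes.

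Of the lung genes, Sftpb, which encodes surfactant protein B (chr6:72254619-72262926, plus strand), had 0 covered bases of all 4 marks in both genotypes within 10 kb. That held for 5227 genes, 23.4% of all. Within 50 kb of Sftpb, H3K4me3 covered 3.4 kb in wild type against 4.1 kb in the mutant, and H3K27ac 2.43 and 2.53 kb. These regions lay at the starts of Usp39 and 0610030E20Rik, and none remained when bases within 2.5 kb of another gene's TSS were left out. No peak of either factor lay within 50 kb of Sftpb.

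Sftpc, which encodes surfactant protein C (chr14:70920748-70923888, minus strand), lies between genes that were marked in this tissue. H3K4me3 covered 3.79 kb of its 10 kb window in wild type against 4.26 kb in the mutant, H3K27ac 2.07 and 2.55 kb, H3K4me1 4.0 and 4.05 kb, and H3K27me3 0.736 and 1.52 kb. All of the H3K4me3, H3K27ac and H3K27me3 was within 2.5 kb of a TSS of Bmp1 or Lgi3. Outside those stretches H3K4me1 alone remained, with 0.475 kb in wild type against 0.717 kb in the mutant. The nearest NKX2-1 peak was 53.6 kb and the nearest LHX6 peak 507 kb from the Sftpc TSS. Sftpc thus had marks nearby and none at its own promoter.

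Scgb1a1, the club cell secretoglobin (chr19:9158126-9162448, minus strand), had a marked stretch beyond its 3′ end. H3K4me3 lay 4974 to 5719 bases after the TSS in wild type and 4904 to 5722 in the mutant, between annotated genes, at fold enrichments of 11.1 and 16.1. In the 10 kb window H3K27ac covered 1.15 kb in wild type against 0.983 kb in the mutant, H3K4me1 1.86 and 1.28 kb, and H3K27me3 0 in both. A single NKX2-1 peak within 50 kb (chr19:9140722-9141084) was 21.4 kb away, in an intron of Ahnak, with a fold enrichment of 5.25, above 71% of the list. H3K27ac at that peak had a fold enrichment of 9.41 over 21023 to 22454 bases after the Scgb1a1 TSS in wild type, and 6.1 over 21156 to 21881 bases in the mutant. H3K4me3 there, at 6.18 in wild type, had no overlapping region in the mutant. The peak window held none of the NK2 cores.

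Of the thyroid genes, Tg (chr15:66502315-66682283, plus strand) had no H3K4me3 and no H3K27me3 in its window of 148 kb in either genotype. H3K27ac covered 0.43 kb in wild type against 0.322 kb in the mutant, which is 0.291% and 0.218% of the window. It was 1 region in intron 5, with fold enrichments of 3.33 and 3.05. H3K4me1 covered 1.14 and 1.92 kb in scattered introns, a ratio of 1.68 that missed the rule of 1 kb. No NKX2-1 or LHX6 peak lay within 50 kb of a Tg TSS. Tg was thus bare at its promoter and nearly bare along its length in these lists.

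Tshr (chr12:92639433-92778949, plus strand) was marked at its promoter in both genotypes. H3K4me3 covered 1107 bases there in wild type and 1359 in the mutant, with fold enrichments of 30.9 and 34.0, above 83.6% and 80.8% of the regions of each list. H3K27ac covered 496 and 546 bases within 1 kb of the TSS, with folds of 4.82 and 3.87. H3K4me1 covered 888 and 803 bases. H3K27me3 covered 699 bases in wild type and 1333 in the mutant. At the promoter itself, then, the covered length of H3K27ac was much alike in the 2 libraries, and that of H3K27me3 was 1.91 times as long in the mutant.

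The NKX2-1 peak at Tshr (chr12:92639227-92639498) ran from 206 bases before to 65 bases after the TSS, with a summit 78 bases before it. Its fold enrichment of 4.34 was above 48.9% of the NKX2-1 list, and its −log10 p was 15.9. The LHX6 peak (chr12:92643615-92643894) lay in intron 1, from 4182 to 4461 bases after the TSS, with a fold enrichment of 4.12, above 28% of the LHX6 list. Both peaks were thus of middle or lower strength among their own lists. NKX2-1 peaks lay in the 10 kb windows of 13% of all genes and LHX6 peaks in those of 1.32%, while peaks of both lay in the windows of 235 genes, 1.05%. A further NKX2-1 peak, at a fold enrichment of 3.88, lay 16.6 kb before Tshr at the start of 4930534B04Rik.

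The H3K27ac and H3K4me1 that differed lay in intron 1 around the LHX6 peak. In wild type, H3K27ac covered 3596 to 4077 and 4335 to 5069 bases after the TSS, with fold enrichments of 4.25 and 3.79, and the mutant list had no region overlapping either. Wild-type H3K4me1 covered 3679 to 4119, 4202 to 4507 and 4694 to 4944 bases after the TSS, with folds of 5.08, 3.2 and 3.97, again with no overlapping mutant region. The LHX6 peak overlapped the second region of each mark. Farther into intron 1, wild-type H3K27ac regions at 11.9 and 22.3 kb after the TSS also had no mutant counterpart, at folds of 3.33 and 4.25, while H3K4me1 was present at both places in both genotypes. All 4 wild-type H3K27ac regions inside Tshr within 50 kb of the TSS were therefore missing from the mutant list, and the promoter region was in both. Their folds were above 11.7% to 41.4% of that list, so all 4 were among its weaker regions.

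Over its 10 kb window, Tshr had 1.71 kb of H3K27ac in wild type against 0.546 kb in the mutant, which is 3.14 times less. A fall greater than this was seen at 1.98% of all genes. H3K4me1 covered 1.89 and 0.803 kb, 2.35 times less, with a greater fall at 2.76% of genes. H3K27me3 covered 1.17 and 2.61 kb, 2.24 times more, with a greater rise at 3.73% of genes. H3K4me3 covered 1.11 and 1.36 kb and was not called. The mutant H3K27me3 ran as 1 region from −332 to 1796 bases relative to the TSS, at a fold enrichment of 6.08, where wild type had 2 shorter regions at 3.5 and 3.37. The call for H3K27me3 ended when the mutant lengths were divided by the 1.32-fold greater total of that mark, which left a rise of 0.819 kb, short of the limit of 1 kb. With regions of a −log10 p of at least 10 the rise was 2.61 kb and the call stood. The call for H3K4me1 ended with regions of a −log10 p of at least 10, where the change was −0.777 kb, and in a window of 25 kb, where it was −1.16 kb. In tissue, fewer cells with a mark and less of the mark in each cell cannot be told apart.

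**Figure D3:**
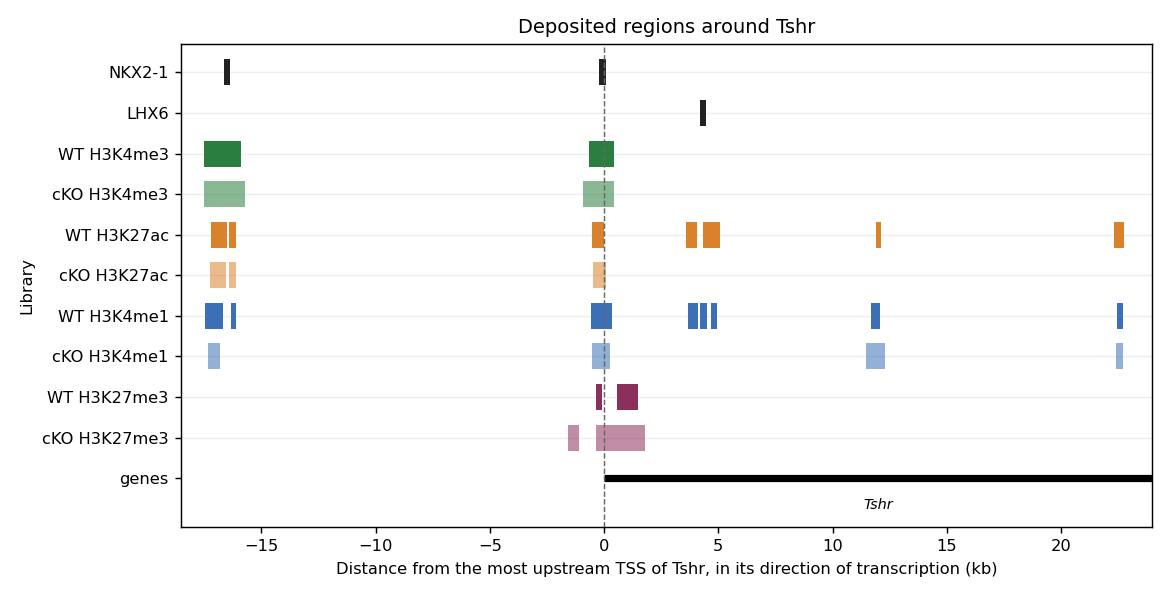
Deposited regions of the 10 lists around Tshr, drawn to scale as blocks by distance from its TSS (x axis, kb, dashed line at 0), with the mutant lists in paler colours and the gene as a black bar. The 4 wild-type H3K27ac regions to the right of the TSS have no mutant counterpart, the LHX6 peak lies between 4182 and 4461 bases, and the region 16.6 kb to the left is the start of 4930534B04Rik, marked in both genotypes.

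Slc5a5, the iodide symporter (chr8:73406788-73416656, minus strand), had H3K27me3 over its TSS, from −1017 to 1943 bases relative to it in wild type and from −1334 to 2062 in the mutant. The fold enrichments were 11.2 and 13.7, above 95.2% and 96.7% of each list. H3K4me3 at the TSS was weak, at 4.12 and 5.23, above 4.12% and 16.7% of each list. H3K4me1 at the TSS, with a fold of 3.31 in wild type, had no region in the mutant list. H3K27ac covered 2.06 kb of its 10 kb window in wild type against 2.3 kb in the mutant, none of it within 1 kb of the Slc5a5 TSS. An NKX2-1 peak in that window lay 4.61 kb from the TSS, with a fold enrichment of 3.58. Within 50 kb lay 3 more NKX2-1 peaks, 2 of them in Ccdc124 and 1 at A230052G05Rik, and no LHX6 peak.

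Pax8, a paired-box factor needed for the thyroid follicular cell (chr2:24276071-24331119, minus strand), had the widest rise of H3K27me3 among the members in kb. H3K27me3 covered 14.7 kb of the 72.52 kb window in wild type against 18 kb in the mutant, 20.2% and 24.8% of it. A larger rise was seen at 0.895% of genes, but the ratio of 1.23 was below the rule and below the 1.32-fold rise of the whole list. Rises in kb were not scaled to window length, and this window is longer than the 20 kb of members with 1 TSS. Neither the order among members nor the share of genes compares like with like. The region over the TSS had fold enrichments of 14.3 and 16.6, above 98.7% and 98.6% of each list. H3K4me3 lay from 968 to 1775 bases after the most upstream TSS in wild type and from 904 to 1977 in the mutant, at folds of 10.1 and 14.8. Pax8 was thus covered by H3K27me3 at its start and again, in separate regions, farther into the gene. These lay between 28492 and 42363 bases after the most upstream TSS in wild type and between 25442 and 42492 in the mutant. The H3K4me3 lay inside the stretch at the start.

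The NKX2-1 peak in Pax8 (chr2:24297350-24297814) lay in intron 4, 33305 to 33769 bases after the most upstream TSS. It was the strongest of the members' peaks, with a fold enrichment of 6.46 above 84.7% of the list and a −log10 p of 32.2. It lay in an H3K4me1 region of both genotypes, at folds of 5.18 in wild type and 5.06 in the mutant, in a gap between H3K27me3 regions. A wild-type H3K27ac region of 286 bases overlapped its edge, at a fold of 3.79, and had no mutant counterpart. The peak, this region and the H3K4me1 regions under the peak also lay within 2.5 kb of a TSS of Gm13415. With bases that near another gene's TSS left out, no H3K27ac remained in the Pax8 window of 10 kb. The mutant then had 10.6 kb of H3K27me3, and wild type 8.45 kb. Which of the genes the site belongs to was not tested. The peak falls in the 10 kb window because Pax8 has short annotated transcripts that start far downstream. With TSSs of protein-coding transcripts alone, 2 members (Tshr and Slc5a5) in place of 3 had an NKX2-1 peak in that window.

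**Figure D4:**
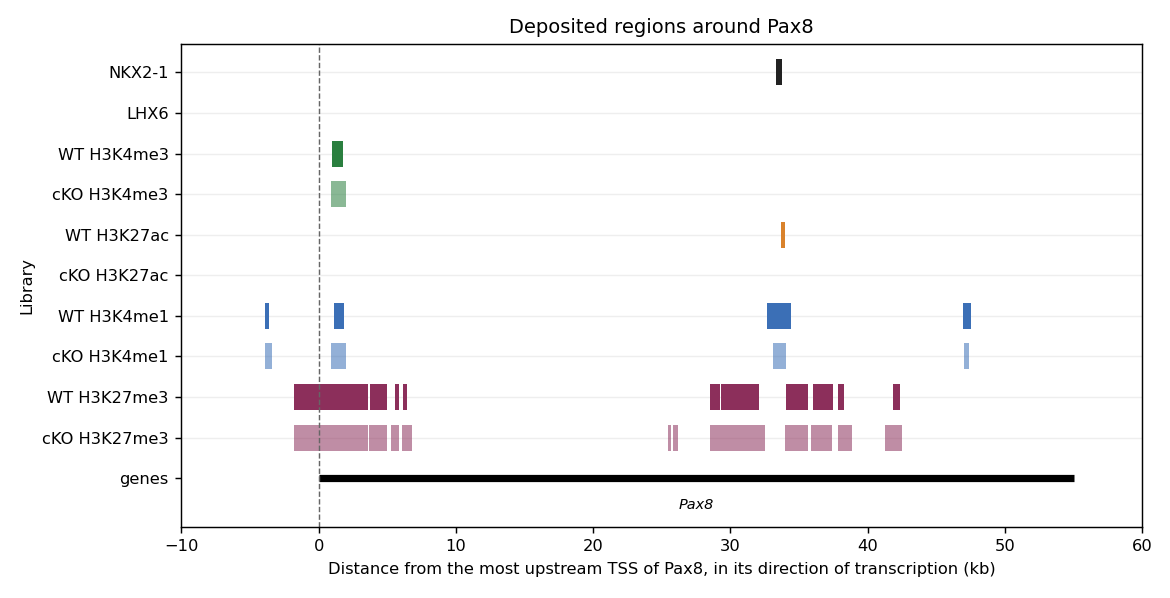
Deposited regions of the 10 lists around Pax8, drawn to scale as blocks by distance from its most upstream TSS in the direction of transcription (x axis, kb), with the mutant lists in paler colours and the gene as a black bar. The NKX2-1 peak at 33305 to 33769 bases sits on H3K4me1 of both genotypes and beside a wild-type H3K27ac region of 286 bases, and H3K27me3 covers the start of the gene in both.

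Foxe1, a forkhead factor of thyroid development (chr4:46356481-46359284, plus strand), is a gene of 1 exon that lay wholly inside H3K27me3. The region ran from −6553 to 7728 bases relative to the TSS in wild type and from −6581 to 8659 in the mutant, at fold enrichments of 13.6 and 17.0. H3K27me3 filled 77.4% of the 20 kb window in wild type and 82.6% in the mutant, the largest share of the 8 members. H3K4me3 started 487 bases after the TSS in both genotypes and covered 0.807 and 0.914 kb. H3K27ac was at 0 in both. The nearest NKX2-1 peak was 147 kb away and the nearest LHX6 peak 3450 kb.

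NKX2-1 peaks lay in the 10 kb windows of 3 members, Tshr, Slc5a5 and Pax8, and in the 50 kb windows of 4, with Scgb1a1 added, against 13% and 28.2% of all genes. LHX6 peaks lay in the 10 kb and the 50 kb window of 1 member, Tshr, against 1.32% and 3.12% of all genes. Of the 3 members with an NKX2-1 peak within 10 kb, the peak lay at the gene's own TSS at Tshr alone.

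Regions were also counted 1 by 1, in a count added after the data were seen. Of 11 wild-type H3K27ac regions in the members' 10 kb windows, 4 had no overlapping mutant region, against 19.4% of that whole list. At Tshr this was 2 of 3, and over the other 7 members 2 of 8. Of 23 wild-type H3K4me1 regions, 7 had no mutant counterpart, against 15.2% of the list, with 3 of 4 at Tshr and 4 of 19 elsewhere. Of 19 mutant H3K27me3 regions, 5 had no wild-type counterpart, against 46.6% of the list, with 1 of 2 at Tshr and 4 of 17 elsewhere. H3K27me3 in wild type had 18 regions in these windows, and 0 of them were missing from the mutant, against 15.7% of the list.

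What the members' promoters share in sequence was described by their CpG content, the count of CG pairs over the count expected from C and G, in 500 bases on either side of the most upstream TSS. The ratio was 0.0773 at Tg, 0.206 at Sftpb, 0.211 at Scgb1a1 and 0.248 at Sftpc, the 4 members without a mark. It was 0.221 at Pax8, 0.536 at Tshr, 0.686 at Foxe1 and 0.765 at Slc5a5, the 4 members with H3K4me3 and H3K27me3. The medians were 0.235 for the members and 0.549 for all genes. Unmarked members thus had low ratios throughout, and Pax8 was the marked member whose ratio lay among theirs. At Pax8 the ratio and the H3K4me3 belong to different stretches. Its H3K4me3 region began 968 bases after the most upstream TSS in wild type and 904 in the mutant, outside the 500 bases measured. Its H3K27me3 covered the measured stretch. Of the 8960 genes under 0.4, 75.8% had no mark and 18.9% had H3K4me3 in wild type. Of the 10199 genes at 0.6 or more, 1.33% had no mark and 98.2% had H3K4me3, and 24.2% had H3K27me3. The 3191 genes between, with Tshr among them, had H3K4me3 at 81.5% and H3K27me3 at 34.0%.

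**Figure D5:**
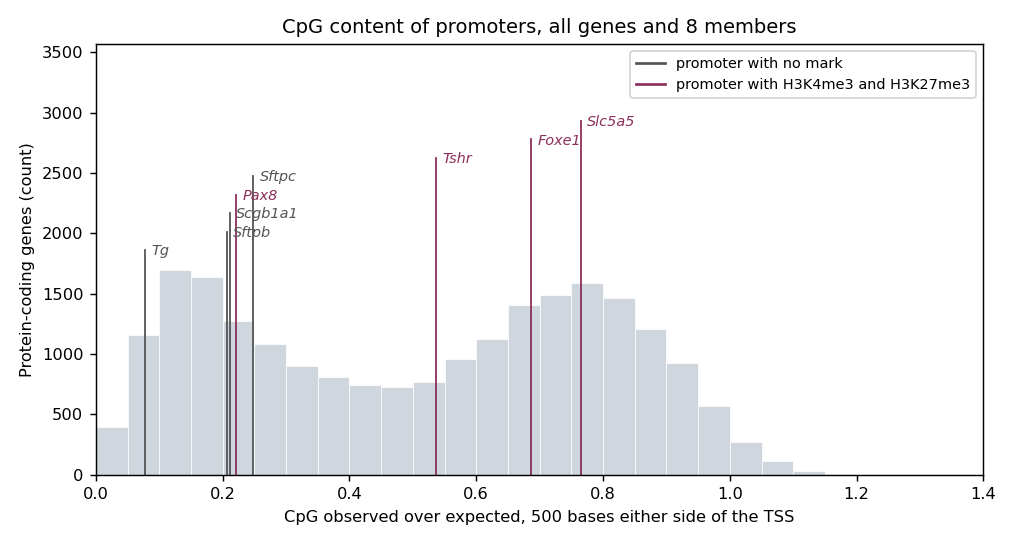
Count of protein-coding genes (y axis) by the CpG ratio of the 1 kb around the most upstream TSS (x axis, observed over expected), with each member as a vertical line, grey without marks and purple with H3K4me3 and H3K27me3. The 4 unmarked members lie between 0.0773 and 0.248, and the marked members reach from 0.221 at Pax8 to 0.765 at Slc5a5. The H3K4me3 region of Pax8 lies outside the 1 kb measured.

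The wider set of 25 other lung and thyroid genes showed the same main states. In wild type 12 had no mark, 10 had H3K4me3 and H3K27me3 without H3K27ac, 2 had H3K27me3 without H3K4me3, and 1, Abca3, the lipid transporter of lamellar bodies, had H3K27ac. Those without a mark included Sftpa1, Sftpd, Scgb3a1 and Scgb3a2, relatives of the lung members. The 10 bivalent genes were Slc34a2, Hopx, Foxa1, Gata6, Duox2, Duoxa1, Duoxa2, Slc26a4, Hhex and Glis3, and the other 2 were Foxa2 and Duox1. H3K27ac was called lower at 0 of the 25 and H3K4me1 lower at 0, against 1.16% and 1.06% of all genes, so that a count of 0 is near the background. H3K4me3 was higher in the mutant at 4 of the 25, against 2.27% of all genes, namely Foxa1 (2.87 and 4.68 kb), Foxa2 (0.389 and 2.08 kb), Gata6 (2.83 and 4.74 kb) and Glis3 (6.5 and 12.4 kb). These lengths were not scaled to the 1.22-fold greater total of H3K4me3 in the mutant. The same call was met by 1 of 4 pallium markers (Tbr1) and 2 of 4 hypothalamus markers (Sim1 and Otp). It was met by 0 of the ventral telencephalon, endothelium and microglia markers. H3K27ac was also higher at 1 of the 25, against 2.81% of all genes, which was Glis3, a zinc finger factor of the thyroid, with 3.85 and 11.6 kb. H3K27me3 was higher at 1, against 4.35%, which was Duox1, an oxidase that supplies hydrogen peroxide for hormone synthesis, with 2.74 and 5.79 kb. NKX2-1 peaks lay within 10 kb of 2 of the 25 (Ager and Glis3), against 13% of all genes, and within 50 kb of 5, against 28.2%. LHX6 peaks lay within 50 kb of 0 of the 25, against 3.12% of all genes.

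Lhx6 and Lhx8, genes that act after NKX2-1 in the MGE itself, give the size of change the same measure returned there. H3K27ac covered 17.7 kb at Lhx6 in wild type against 0.781 kb in the mutant, and 9.98 and 1.11 kb at Lhx8. Both were also lower in H3K4me1 and H3K4me3, with H3K4me3 at 21.5 and 8.77 kb for Lhx6 and 16.8 and 8.07 kb for Lhx8. Tshr differed from both in that its H3K4me3 was not lower and its lengths were shorter. H3K27me3 was 22.6 and 23.9 kb at Lhx6 and 12.4 and 14.3 kb at Lhx8, not called at either.

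Genes with the most similar lengths over the 8 mark lists were named for each member with any region, by the sum of the absolute differences in kb over the 8 lists. For Tshr they were Nanog at 2.39 kb, C1qa at 2.77 kb and Htr3b at 2.96 kb, none of which had a peak of either factor within 10 kb. For Pax8 they were Dlx4 at 5.1 kb, Olig3 at 6.69 kb and Dmrt2 at 7.12 kb. For Foxe1 they were Slc6a5 at 1.88 kb and Tcfap2b at 2.15 kb. For Slc5a5 they were Stat5a at 1.78 kb, Hspa1l at 1.93 kb and Slc25a23 at 2.28 kb. Tg was most like Tgm6 at 0.468 kb, Spp2 at 0.62 kb and Sdpr at 0.879 kb. Scgb1a1 was most like Gm10355 at 0.83 kb and Fam75d3 and Gm4934 at 1.08 kb each, and Sftpc was most like Dusp16 at 1.47 kb, Rybp at 2.04 kb and Psen2 at 2.07 kb. Window lengths were matched, not promoter states. The genes named for Sftpc had H3K4me3 and H3K27me3 with H3K27ac in wild type, unlike the unmarked Sftpc. None of those named for Tshr shared its state. Those named for Pax8 and Foxe1 shared theirs, and those named for the other members were mixed.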

How the data were processed

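Peak lists of 10 ChIP-seq libraries were used, 8 of histone marks from wild-type and Nkx2-1cKO MGE and 2 of factors from wild-type basal ganglia, grouped by antibody and genotype as labelled. Per the submitters' processing notes, the tools were MACS2 2.1.0, BWA 0.6.2, CASAVA 1.8.2 and bcl2fastq 1.8.4, with the build mm9. Per the file headers, MACS version 2.1.0.20140616 was run on merged alignments with input as control, a p-value limit of 1e-05, no local background, no fragment model, a tag extension of 250 bases, 1 tag per position and split summits. Per the file headers, 1 input served H3K27ac, H3K4me1 and H3K27me3 of a genotype, and H3K4me3 had another. How many libraries were merged is not given in the sources used here. The deposited pileup is a signal, in tags after extension. The authors' fold is a ratio of ChIP to input. The authors' lists also hold a −log10 p-value and a −log10 q-value, and the latter was not used because the file headers state that it was not calculated. Folds were used within a list only, and those of 2 lists are printed side by side.

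Rows that share a start and an end were joined, keeping the strongest summit. Genes, TSSs and sequences came from GENCODE vM1 and NCBIM37, the build of the files, with coordinates counted from 1 (22350 genes, 70018 TSSs). Overlaps, covered bases and motifs used pandas 2.3.3, numpy 2.4.6 and pysam 0.24.0 under Python 3.11.15, and matplotlib 3.10.9 drew the figures. Coverage was tested on 500 simulated windows and on 300 windows against bedtools 2.31.1, with 0 mismatches. Depth per library is the authors' tag count after duplicate removal, from 26.8 to 89.1 M, and it limits which weak regions are listed. With 1 library per group no p-value was computed. Shares of all genes stand as background. Genes named were the 8 members, marked neighbours, the 3 most similar genes per member, and the listed lung, thyroid and MGE genes. Results for some of these genes are not reported here. The members, lists and rules were chosen with earlier results of these data known. Alternatives were promoter windows of 500 bases and 2.5 kb, coding TSSs, a −log10 p of at least 10, other limits of the call, a window of 25 kb, mutant lengths scaled to the wild-type total, and factor peaks without those found in all 10 lists.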

Additional observations from a re-analysis of the deposited data

How the results depend on the processing

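Of the member counts under the alternatives, 90 stayed within 1.5 times the reported count and 12 did not. Promoter H3K4me1, reported at 4 members in wild type and 3 in the mutant, was at 2 and 2 within 500 bases, 4 and 4 within 2.5 kb, 1 and 2 with regions of a −log10 p of at least 10, and 1 and 2 with at least 500 covered bases, so the order of the genotypes was lost or turned. Wild-type H3K27ac was at 0 members with at least 500 covered bases, against 1, since Tshr had 496. With a −log10 p of at least 10, H3K4me1 was lower at 0 members and higher at 1 (Tg), against 1 lower (Tshr) and 0 higher reported. With a call at 500 bases, H3K4me1 was higher at 1 (Tg) and H3K27me3 higher at 2 (Tshr and Sftpc). In a window of 25 kb, H3K27ac was lower at 2 (Tshr and Scgb1a1), H3K4me1 lower at 0 and H3K27me3 higher at 2 (Tshr and Sftpc). With mutant lengths scaled to the wild-type total, H3K27me3 was higher at 0. Beyond the count limits that alternatives set by their own construction, the cause was not tested. Lower H3K27ac at Tshr was called under each alternative run for coverage, with changes from −1.81 to −1.17 kb. The 3 alternatives were chosen after seeing the data were the joint call of marks, the regions lost or gained, and windows without bases near other genes' TSSs. No paired analysis was possible because the input libraries alone carry replicate numbers and they have no peak list here. Depth limits the lists to regions past the authors' threshold, so an unlisted region may hold signal below it.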
